A study of Homo sapiens with 22 samples.

Results

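The wide Pol II domains are stretches of at least 8000 bp that 1 peak of the control Pol II list covers without a break. They numbered 707 of 33370 control Pol II peaks on chromosomes 1 to 22, X and Y, or 2.119% of the peaks and 16.21% of the base pairs in peaks. Together they spanned 9.186 Mb, with widths from 8001 to 70422 bp and a median of 10881 bp, where the median over all control Pol II peaks was 923 bp. The domains were chosen by their width in the control Pol II list, so that width and their control Pol II are a description and not a result. Just inside the limit lay peaks of 8001 bp at LINC01220, 8009 bp at the end of HNRNPF and 8016 bp at TMPO-AS1. Just outside it lay peaks of 7997 bp at DDX43 and 7995 bp at ANKRD54 and EIF3L.

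RNA polymerase II (Pol II) transcribes protein-coding genes, most long non-coding RNAs and the hosts of most microRNAs. It often pauses just downstream of a promoter and again slows past the polyadenylation site, so that chromatin immunoprecipitation (ChIP) of Pol II usually gives narrow peaks at gene starts, and continuous signal over a whole gene is known from genes with dense polymerase. Trimethylation of histone H3 at lysine 4 (H3K4me3) marks the nucleosomes around active promoters, and crosslinking immunoprecipitation (CLIP) of QKI5, the nuclear isoform of the RNA-binding protein QKI, maps the RNA it contacts.

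THP-1 is a monocytic leukaemia line. Control cells were infected with a lentivirus carrying an sh-control sequence and knockdown cells with one carrying an sh-QKI5 sequence, although the series text calls the control cells untreated. Each condition had 2 replicates per antibody (Pol II, H3K4me3, QKI5), and the authors made each of the 6 peak lists from both replicates. The lists therefore give 1 value per condition, no difference between conditions has a replicate check, and no p-value is given for one. Neither the number of hairpins and infected cultures nor the depth of any sample is given in the sources used here. Of 14 monocytic genes checked, 13 carried both H3K4me3 and Pol II in both conditions, the exception being MPO. The peak lists do not measure the level of QKI, so the knockdown itself was not checked here. Wide domains reached SPI1, CEBPA, CD68 and AZU1.

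The widest domain, 70422 bp at chr22:46051804-46122225 (GRCh38.p5), held MIRLET7BHG, host of let-7a-3 and let-7b, and the 47201 bp domain at chr13:91322441-91369641 held MIR17HG, host of the miR-17-92 cluster. The 9832 bp domain at chrX:45742235-45752066 held MIR221 and MIR222, the 24897 bp domain at chr17:58324245-58349141 held MIR142, a microRNA gene of blood cells, and a 15152 bp domain over MCM7 held MIR25, MIR93 and MIR106B. An 8271 bp domain held MIR15B and MIR16-2, and one of 11681 bp held MIR6838. Mature microRNAs of these domains are printed to show which shared a seed, the bases 2 to 8 that pair with targets, here in capitals, within and between domains (sequences from RefSeq, GRCh38.p14).
let-7a-5p: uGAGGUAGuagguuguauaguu
let-7b-5p: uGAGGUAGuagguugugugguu
miR-17-5p: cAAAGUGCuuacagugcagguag
miR-20a-5p: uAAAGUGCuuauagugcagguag
miR-93-5p: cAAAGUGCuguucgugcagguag
miR-106b-5p: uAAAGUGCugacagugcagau
miR-19a-3p: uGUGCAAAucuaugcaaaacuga
miR-19b-3p: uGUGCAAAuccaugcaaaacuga
miR-92a-3p: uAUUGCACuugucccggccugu
miR-25-3p: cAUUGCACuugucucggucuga
miR-221-3p: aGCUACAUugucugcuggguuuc
miR-222-3p: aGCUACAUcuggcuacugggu
miR-15b-5p: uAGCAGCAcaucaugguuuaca
miR-16-5p: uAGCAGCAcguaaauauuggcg
miR-6838-5p: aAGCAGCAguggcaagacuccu
miR-142-3p: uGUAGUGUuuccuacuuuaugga
The let-7 pair shared the seed GAGGUAG. miR-17-5p and miR-20a-5p from the MIR17HG domain had the seed AAAGUGC in common with miR-93-5p and miR-106b-5p from the MCM7 domain, and miR-92a-3p and miR-25-3p joined the same 2 domains through AUUGCAC. In the same way miR-15b-5p and miR-16-5p in 1 domain and miR-6838-5p in another had the seed AGCAGCA. Within single domains, GCUACAU was common to miR-221-3p and miR-222-3p, and GUGCAAA to miR-19a-3p and miR-19b-3p, while no other microRNA in a domain had the seed of miR-142-3p. In all, 83 of the 1736 microRNA genes with a mature sequence in the RefSeq table lay in 61 of the domains. Of these 83, 79 lay on knockdown Pol II and 48 on control H3K4me3. Over all domains, 88.85% of the base pairs lay under knockdown Pol II and 46.95% under control H3K4me3. No share over all microRNA genes is given, so the counts describe only genes that lay in a domain. The 6 MIR17HG microRNAs all lay on both, whereas MIR25, MIR93 and MIR106B lay on knockdown Pol II only, and MIR222 on neither.

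Promoters are printed for 5 genes that lay within domains and held a stress-response motif. Each runs from 250 bases before to 50 bases after a start listed by RefSeq (GRCh38.p14). Capitals mark every match on either strand to TATAAA (the TATA box), to CCAAT (the NF-Y box), to GGGCGG (the GC box), to TGATGCAA (the core of the amino acid response element) and to the endoplasmic reticulum stress element. That element is a CCAAT followed by 9 unspecified bases and then CCACG, so it always contains a CCAAT match. The motifs were chosen after the genes of the domains were known.
HSP90B1 promoter, chr12:103930160-103930459, plus strand: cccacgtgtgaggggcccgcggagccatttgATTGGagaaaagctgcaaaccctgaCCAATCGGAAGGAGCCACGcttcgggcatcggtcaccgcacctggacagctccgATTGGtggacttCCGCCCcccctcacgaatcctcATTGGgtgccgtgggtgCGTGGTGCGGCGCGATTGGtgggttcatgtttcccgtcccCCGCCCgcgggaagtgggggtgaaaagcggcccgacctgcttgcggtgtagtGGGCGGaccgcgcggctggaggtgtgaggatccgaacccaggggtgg
HSPA5 promoter, chr9:125241294-125241593, minus strand: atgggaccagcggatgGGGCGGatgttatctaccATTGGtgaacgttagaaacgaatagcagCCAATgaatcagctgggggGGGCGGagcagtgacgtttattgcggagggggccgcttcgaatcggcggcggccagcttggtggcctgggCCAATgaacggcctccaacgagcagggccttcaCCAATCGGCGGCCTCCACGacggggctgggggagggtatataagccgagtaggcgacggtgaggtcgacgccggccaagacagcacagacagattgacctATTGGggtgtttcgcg
XBP1 promoter, chr22:28800520-28800819, minus strand: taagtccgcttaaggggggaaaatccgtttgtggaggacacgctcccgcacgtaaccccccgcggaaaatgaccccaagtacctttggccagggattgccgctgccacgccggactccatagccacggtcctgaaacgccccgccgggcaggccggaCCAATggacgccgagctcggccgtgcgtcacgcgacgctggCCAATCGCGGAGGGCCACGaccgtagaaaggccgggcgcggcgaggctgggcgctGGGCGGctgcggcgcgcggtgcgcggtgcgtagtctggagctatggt
AARS1 promoter, chr16:70289457-70289756, minus strand: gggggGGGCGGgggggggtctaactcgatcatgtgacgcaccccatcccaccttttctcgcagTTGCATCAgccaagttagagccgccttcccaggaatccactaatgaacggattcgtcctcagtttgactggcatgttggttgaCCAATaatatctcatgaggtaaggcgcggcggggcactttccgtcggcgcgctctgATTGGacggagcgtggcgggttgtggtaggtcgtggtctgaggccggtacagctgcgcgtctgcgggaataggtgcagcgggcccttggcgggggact
CHAC1 promoter, chr15:40953221-40953520, plus strand: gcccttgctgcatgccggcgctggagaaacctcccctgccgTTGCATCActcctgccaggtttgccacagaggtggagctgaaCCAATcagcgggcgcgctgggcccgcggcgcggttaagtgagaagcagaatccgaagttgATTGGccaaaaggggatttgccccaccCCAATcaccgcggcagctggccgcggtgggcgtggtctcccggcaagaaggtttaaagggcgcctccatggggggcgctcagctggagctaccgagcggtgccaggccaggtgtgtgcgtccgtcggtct
The endoplasmic reticulum stress element is known as a binding site of NF-Y with ATF6. It occurred at 6 of the 532 protein-coding starts in domains, or 1.128% (exact 95% interval 0.415 to 2.439%), at 7 of 8376 starts in other control Pol II peaks, or 0.08357% (0.03361 to 0.1721%), and at 18 of all 15842 listed starts, or 0.1136%. The 6 genes were the chaperones HSP90B1, HSPA5 and CALR, the stress transcription factor XBP1, and SERP1 with EIF2A, which are transcribed away from each other from 1 stretch and share its match. Because the element was chosen with the genes of the domains known, and 1 match counts for 2 genes, these shares are a description and support nothing. HSP90B1 had 2 matches, beginning 194 and 89 bases before its start on opposite strands. The domains at HSP90B1, HSPA5, XBP1, CALR and SERP1 were between 95.13% and 100% covered by knockdown Pol II. TGATGCAA occurred at 4 starts in domains, those of AARS1, HERPUD1, PPP1R15B and CHAC1, or 0.7519% (0.2052 to 1.914%), against 0.4059% (0.2813 to 0.5668%) of starts in other control Pol II peaks and 0.6754% of all listed starts, so that no difference was detectable at these counts. TATAAA occurred at 10.53% (8.05 to 13.45%) of starts in domains, 4.573% (4.135 to 5.042%) of starts in other Pol II peaks and 15.94% of starts in no control Pol II peak. CCAAT (38.16% against 37.39%), GGGCGG (72.93% against 73.96%) and median GC content (65.5% against 66.0%) lay close together at starts in domains and in other Pol II peaks. These intervals, and all others here, cover counting error only, since neighbouring genes and peaks are not independent.

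By position relative to protein-coding genes, 270 domains (38.19%) contained at least 1 whole gene and a further 183 (25.88%) contained a gene start but no whole gene. A gene end without a start was held by 114 domains (16.12%), 67 (9.477%) lay inside a gene, 52 (7.355%) touched no protein-coding gene, and 21 (2.97%) held a gene edge whose strand was not listed. Among the 1937 control Pol II peaks of at least 4000 but under 8000 bp, called medium peaks here, 8.776% held a whole gene and 46.36% a gene start alone. A start of a protein-coding gene lay in a domain for 532 of 15842 genes with a listed start (3.36%). Control H3K4me3 covered 508 of these 532 starts (95.49%; all listed starts, 66.4%), and knockdown H3K4me3 covered 510. The listed starts include 6934 in no control Pol II peak. No share over the 8376 starts in other control Pol II peaks is given, so the count does not set domain starts apart from those. The median length of genes that started in domains was 9186.5 bp, against 30563 bp for genes that started in other control Pol II peaks. Among 269 domains with a single protein-coding start, the domain reached a median of 2447 bp upstream and 8184 bp downstream of it, and 205 (76.21%) reached further downstream. Where a domain held 1 whole gene (126 domains), it continued past the gene's end by a median of 4216 bp and at most 22254 bp. The longest gene that lay whole in a domain was MDM2, whose product ubiquitinates p53, with 42515 bp, followed by the splicing regulator TRA2B with 23457 bp and the mitochondrial chaperone HSPA9 with 21646 bp.

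The 20 widest domains, all at least 29286 bp, included ones centred on microRNA hosts (MIRLET7BHG, MIR17HG). Others were centred on transcription and chromatin regulators (ZEB2-AS1 beside ZEB2, HOXA9, HOXA10, HOXA11 and HOXA13, BMI1 with COMMD3, SKIDA1, SATB1, RUNX1). The rest were centred on RNA-binding proteins (HNRNPU, MBNL1, TRA2B), genes of protein folding or quality control (P4HB, HSP90B1, HSPA9, EDEM1) and MDM2, CDKN2C, TIMP3, CA2 and NEAT1. All 20 overlapped a knockdown Pol II peak of at least 8000 bp, with a median knockdown cover of 95.93%. Their H3K4me3 cover ranged widely. The HOXA domain, 41853 bp at chr7:27160774-27202626, was covered to 100% by H3K4me3 in both conditions, the BMI1 domain (39418 bp) to 96.01% in control and 94.88% in knockdown, and the CDKN2C domain (32342 bp) to 100% and 88.49%. In contrast, H3K4me3 covered 11.6% and 11.13% of the 29482 bp HSPA9 domain, 19.01% and 19.65% of the 46311 bp MDM2 domain, 14.52% and 13.88% of the 38654 bp TIMP3 domain and 3.977% and 2.361% of the 32741 bp EDEM1 domain, which held the end of the gene. The maps of 6 domains show these forms side by side.

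**Figure D1:**
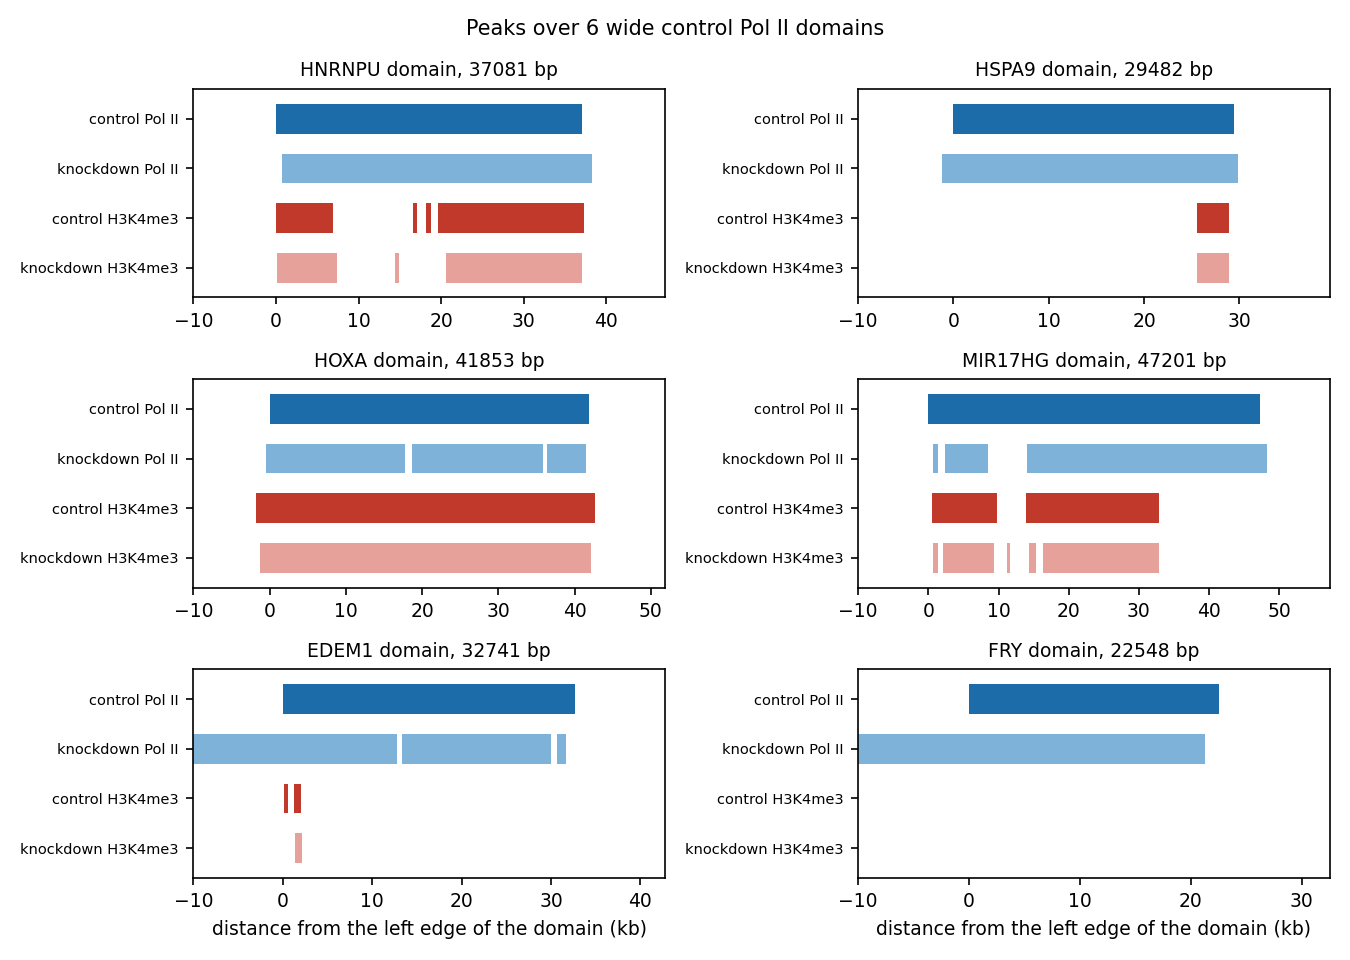
Peaks over 6 wide control Pol II domains, drawn as bars against the distance from the left edge of the domain in kb and clipped 10 kb beyond its edges, with 1 row per list. The HOXA domain was 100% covered by H3K4me3 in both conditions and the HSPA9 domain 11.6% in control, while the FRY domain had none.

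All 707 domains overlapped a knockdown Pol II peak, where 63.3% of all control Pol II peaks did. Among control peaks of at least 6000 bp, a set that includes the domains, 1251 of 1253 (99.84%) did. The overlap was therefore not particular to peaks above the 8000 bp limit. Knockdown peaks covered 88.85% of the domains' base pairs, against 81.37% in medium peaks and 66.59% in all narrower peaks. Per domain, the cover had a median of 91.23% and ran from 13.81% to 100%, with 384 domains at 90% or more and 11 under 50%. A knockdown peak of at least 8000 bp overlapped 499 domains (70.58%). In the reverse direction, all 731 knockdown peaks of at least 8000 bp overlapped a control peak (all knockdown Pol II peaks, 59.4%), 499 of them (68.26%) one of at least 8000 bp, and control peaks covered 89.24% of their base pairs. The median width of the widest knockdown peak at a control domain was 10017 bp and that of the widest control peak at a knockdown domain was 10080 bp. The widest peak of the other condition was the wider of the pair at 33.8% of control domains and at 38.03% of knockdown domains, so the 2 directions gave similar values.

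**Figure D2:**
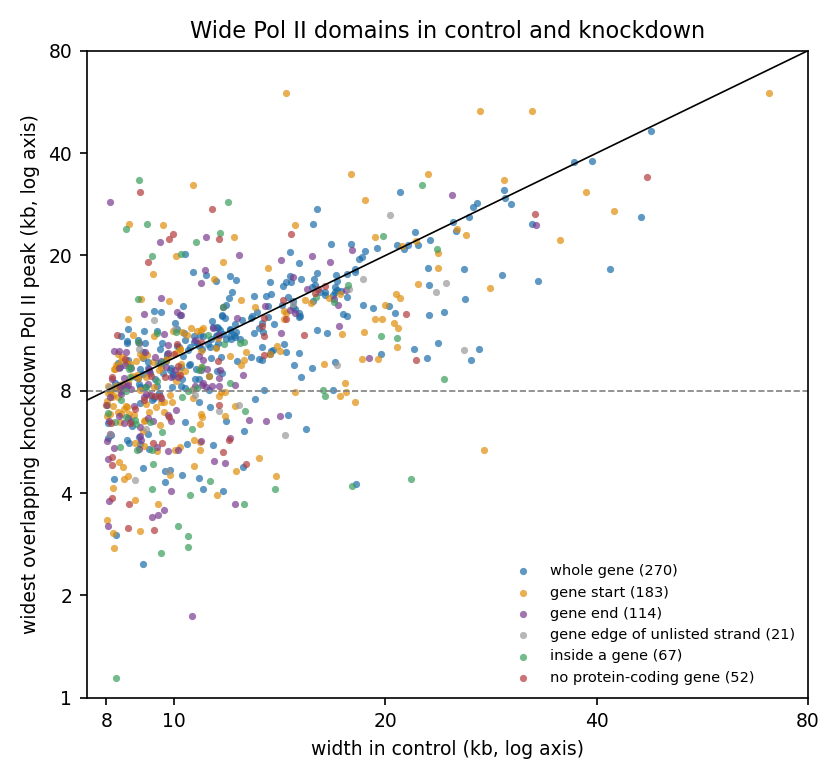
Width of each of the 707 domains in control (x axis) against the widest overlapping knockdown Pol II peak (y axis), both in kb on log axes, with points coloured by gene class, a solid line of equal width and a dashed line at 8 kb. A total of 499 points lie at or above the dashed line and 239 above the solid line.

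Most of the domains without a wide knockdown peak were covered by several narrower ones. Of these 208 domains, 168 overlapped 2 or more knockdown peaks and 40 overlapped 1, and their median cover was 78.32%, against 94.96% where a wide knockdown peak was present. Across all domains, 363 met 1 knockdown peak, 222 met 2, 85 met 3 and 2 met as many as 7. The 522 gaps between knockdown peaks inside domains had a median of 830.5 bp, 64.37% of them were 1000 bp or shorter, and no gap between neighbouring Pol II peaks in either list was under 499 bp. With knockdown peaks joined across gaps of up to 1000 bp, 610 domains overlapped a wide knockdown peak. Gaps accounted for 548057 uncovered bp and unreached domain edges for 476233 bp. GARS1, the glycyl-tRNA synthetase, had the widest domain without a wide knockdown peak: its 27669 bp met 7 knockdown peaks, of which the widest was 5367 bp, with 72.14% covered. The 21749 bp domain in LCP1, an actin-bundling protein of leukocytes, also met 7, the widest 4411 bp, with 64.99% covered. The domain list itself contained such splits, since 22 pairs of domains lay within 1000 bp of each other, among them pairs at RUNX1 (499 bp apart), HNRNPK (588 bp), RBM39 (597 bp), AARS1 (634 bp) and ENO1 (637 bp).

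The lowest knockdown cover was 13.81%, at an 8269 bp domain inside TNPO1, a nuclear import receptor, at chr5:72863057-72871325. It was 21.19% at the end of LRRC41, 27.94% at SPACA6, 32.54% at EXOSC3, a subunit of the RNA exosome, 34.28% inside PHIP, 37.23% inside FASN, the fatty acid synthase, and 37.37% at a domain with the start of RIT1 and the end of KHDC4. An unnamed stretch at chr7:129599296-129608645, the VN1R16P pseudogene, TMEM203 and a stretch of PCBP2 at PCBP2-OT1 had between 42.11% and 49.87%. Of these 11 domains, 7 had no H3K4me3 in either condition, and the TMEM203 domain was 100% covered by it in both. Widths of the 11 ran from 8186 to 12647 bp, so none was among the 100 widest, whose smallest was 17853 bp. Of the 67 domains inside a gene, the median knockdown cover was 82.59%, against 94.54% for domains with a whole gene, 88.76% with a gene start and 89.77% with a gene end.

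H3K4me3 was present in control at 551 of 707 domains (77.93%, exact 95% interval 74.69 to 80.94%; all control Pol II peaks 47.4%) and in knockdown at 548 (77.51%, 74.25 to 80.54%; all 45.9%). It covered 46.95% of the domains' base pairs in control and 44.96% in knockdown, against 57.15% and 55.41% in medium peaks, of which 73.67% (71.65 to 75.62%) met control H3K4me3. The domains thus met the mark about as often as medium peaks and had a smaller part of their width under it. The whole H3K4me3 lists summed to 62.83 Mb in control and 60.62 Mb in knockdown. At single domains the cover was lower in knockdown at 346, higher at 185 and equal at 176, with a median difference of 0.0 percentage points and quartiles of -4.437 and 0.1564. H3K4me3 was present in control alone at 5 domains (ZNF670-ZNF695, PBX3, PARP8, NPM1 and 1 unnamed stretch) and in knockdown alone at 2 (MIR6787 and LINC00641). No such counts over all control Pol II peaks are given, so these do not set the domains apart from other peaks.

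The share of domains with H3K4me3 differed between gene classes. Control H3K4me3 overlapped 264 of 270 whole-gene domains (97.78%, 95.23 to 99.18%) and 180 of 183 gene-start domains (98.36%), but 24 of 114 gene-end domains (21.05%, 13.98 to 29.69%), 31 of 67 domains inside a gene (46.27%) and 36 of 52 domains off protein-coding genes (69.23%). The covered share of base pairs was 54.04% in whole-gene, 63.34% in gene-start and 6.209% in gene-end domains, and in knockdown it was 52.79%, 60.17% and 5.83%. In domains oriented by a single gene, control H3K4me3 covered 88.81% of 134 whole-gene domains at 19% of the width from the 5' side, 47.01% at 49% and 17.16% at 99%. Knockdown H3K4me3 covered 85.07%, 43.28% and 15.67% at the same points, and knockdown Pol II 96.27%, 92.54% and 64.93%. In the 135 gene-start domains control H3K4me3 fell less, with 69.63% covered at 19% of the width, 68.89% at 49%, 62.22% at 79% and 51.85% at 99%.

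**Figure D3:**
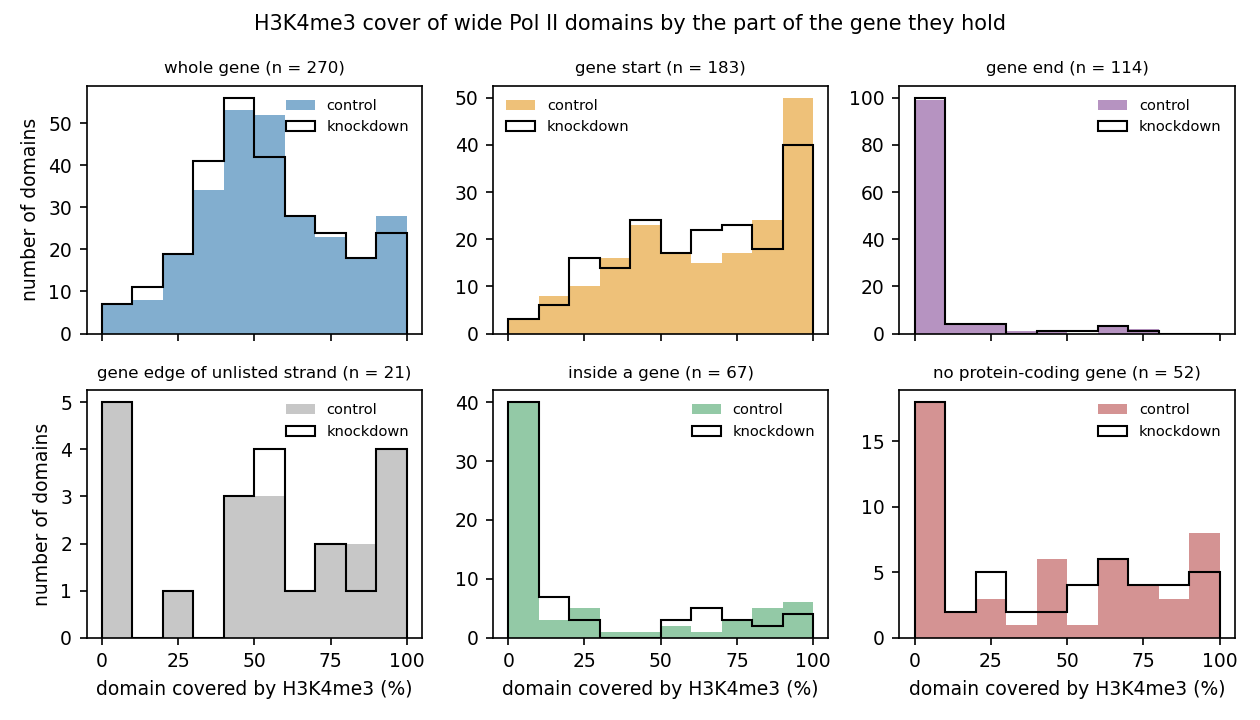
Number of domains (y axis) by the percentage of the domain that H3K4me3 covers (x axis, bins of 10 points) in 6 gene classes, with control filled and knockdown outlined. Gene-end domains gather in the lowest bin, while 28 whole-gene and 50 gene-start domains were at least 90% covered in control.

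**Figure D4:**
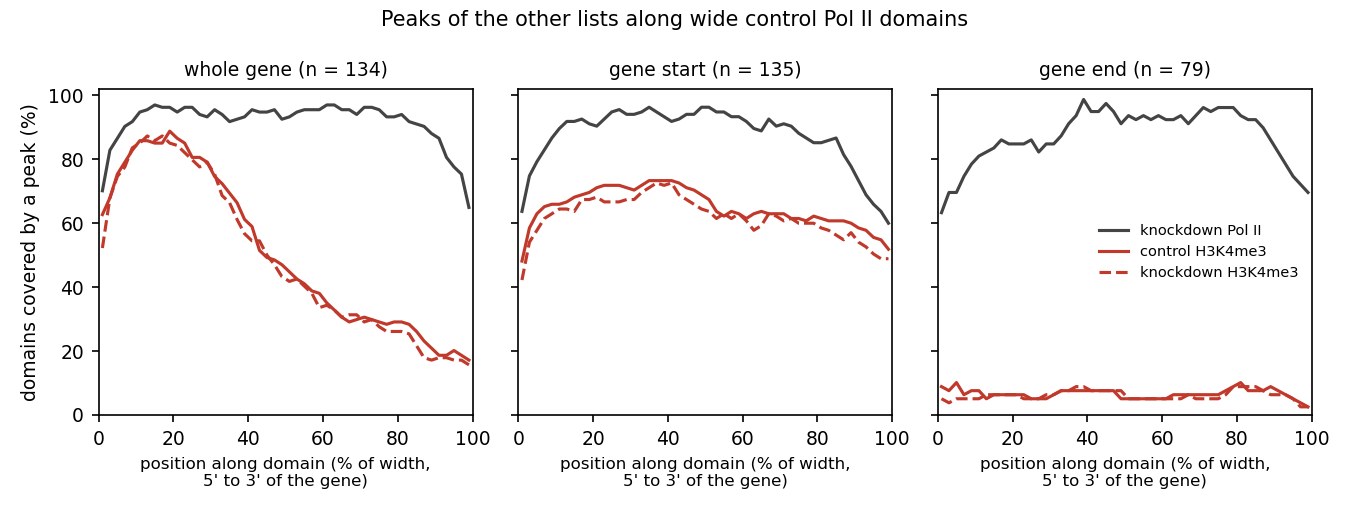
Percentage of domains with a peak (y axis) at each position along the domain (x axis, percent of its width, 5' to 3' of the gene) for domains with a single oriented gene, with lines for knockdown Pol II and for H3K4me3 in each condition. In whole-gene domains control H3K4me3 falls from 88.81% at 19% of the width to 17.16% at 99%, while knockdown Pol II is at 92.54% midway.

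No H3K4me3 in either condition was found at 154 domains (21.78%), of which 90 were gene-end domains and 36 lay inside a gene. The widest was 22548 bp inside FRY, a large scaffold protein of cell shape, at chr13:32039877-32062424, and knockdown Pol II covered 94.43% of it. Next came RILPL2 (18936 bp), AMD1 (17188 bp), which makes decarboxylated S-adenosylmethionine for polyamines, EIF2S2 (17034 bp), the beta subunit of initiation factor eIF2, and SLC4A5 (16870 bp). Domains of 16665 to 15704 bp at PIGB, DLEU2, CDK6, TSPOAP1 and CRLF3 completed the 10 widest. Knockdown Pol II covered between 75.03% (AMD1) and 100% (PIGB) of these 10. The DLEU2 domain touched no protein-coding gene, and those in FRY, CDK6 and TSPOAP1 were inside the gene.

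At least 50% of the span lay in a wide control domain for 452 of 20037 protein-coding genes (2.26%), and in a wide knockdown peak for 501. Since short genes fit a domain more easily, the share among genes of up to 10000 bp with a control Pol II peak, 333 of 2709 (12.3%), is the nearer background for short genes. The gene lists below were chosen with earlier results of these data known and are described by counts only. Several counts share domains.

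Ribosomal protein genes had the highest share when genes of all lengths were counted. Of 80 cytosolic ribosomal protein genes, 42 (52.5%) had at least 50% of their span in a control domain and 40 in a wide knockdown peak, 30 of them in both, with a median of 76.53% of the span in control. Of the 70 ribosomal protein genes of up to 10000 bp, 40 qualified, while 7 of 8 such short genes did among splicing and RNA-binding factors, 6 of 8 among translation factors and 12 of 27 among immediate early genes. RPL36AL lay in a 26472 bp domain and RPL29 in one of 15068 bp. The 12 genes that qualified in control alone included RPL38, RPS7 and RPLP0, and the 10 in knockdown alone included RPS3A, RPL3 and RPL9. Of 24 translation factors 8 qualified in each condition, with EIF5 (15818 bp), EEF1A1 (14609 bp) and TPT1 (13592 bp) wholly in domains of both. Of 20 small nucleolar RNA host genes, 10 qualified in control and 9 in knockdown, led by ZFAS1 (17762 bp), TAF1D (17655 bp), NCL (16828 bp), which encodes nucleolin, and SNHG3 (15681 bp). Among all small nucleolar RNA genes of the table, 115 of 1199 (9.591%) lay at least 50% in a domain, against 88 of 1913 microRNA genes (4.6%), 146 of 18303 long non-coding RNA genes (0.7977%) and 2 of 443 transfer RNA genes (0.4515%).

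Splicing and RNA-binding factors also lay in many domains. Of 51, 20 (39.22%) qualified in control and 18 in knockdown. HNRNPU, a nuclear matrix and RNA-binding protein, lay wholly in a 37081 bp domain that 1 knockdown peak covered to 98.1%. TRA2B lay in 29286 bp and HNRNPA2B1 in 26629 bp, and RBM39 had 86.67% of its span in neighbouring domains of 25849 and 11999 bp together. Heat-shock and chaperone genes had 9 of 29 in each condition, the same 9. P4HB, a protein disulfide isomerase, lay in the 47810 bp domain at chr17:81831524-81879333, HSP90B1 in 29636 bp and HSPA9 in 29482 bp. PDIA4 had 95.84% of its span in neighbouring domains of 20725 and 9888 bp together. Knockdown Pol II covered the domains of P4HB, HSP90B1 and HSPA9 to 97.31%, 99.31% and 100%, and the 20725 bp domain of PDIA4 to 84.74%.

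Immediate early genes, short genes induced within minutes of a stimulus, had 13 of 32 in control and 14 in knockdown, 12 of them in both. CCNL1 had 96.71% of its span in an 18102 bp domain and none in a wide knockdown peak, while ZFP36 (17873 bp), MCL1 (16706 bp) and JUNB (15066 bp) were wholly within domains in both conditions. Of 33 cytoskeleton genes 8 qualified in control and 10 in knockdown, with MYL6, CFL1, ACTB and PFN1 in domains of 17606, 17037, 15037 and 13378 bp. Of 53 myeloid identity genes 7 qualified in control and 11 in knockdown, 6 in both. HOXA9 and HOXA10 lay in the HOXA domain, SRGN, a proteoglycan of secretory granules, in 25220 bp, and GFI1, a transcriptional repressor, in 20947 bp. FCER1G had 100% of its span in a control domain and 0 in a wide knockdown peak, while TYROBP and S100A11 had the reverse.

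Other lists held fewer members. Nuclear long non-coding RNAs had 4 of 13, namely MIR17HG, NEAT1, MIR142HG and MALAT1, whose domains measured 47201, 32648, 24897 and 14434 bp. Histone genes had 8 of 64, of which H1-5, H2AC16, H4C13 and H3C11 shared 1 domain of 12188 bp. The iron, antigen and secretory list had 5 of 24 (B2M, XBP1, ATF4, FTL and TXNIP), glycolysis 3 of 19 (ENO1, GAPDH and TPI1), chromatin and transcription machinery 3 of 31 (TRIM28, BRD2 and HEXIM1), and small nuclear RNA and other non-coding genes 2 of 27 (RNU5A-1 and RNU5B-1, in 1 domain). A pair of lists was added after the domains had been seen, and their counts support nothing. Amino acid response genes had 10 of 21 in control and 6 in knockdown, including GTPBP2 (25912 bp), PYCR1 (22065 bp), DDIT3 (19199 bp) and SLC38A2 (18088 bp). Cytosolic aminoacyl-tRNA synthetases had 3 of 20 in control (GARS1, AARS1 and MARS1) and 1 in knockdown.

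**Figure D5:**
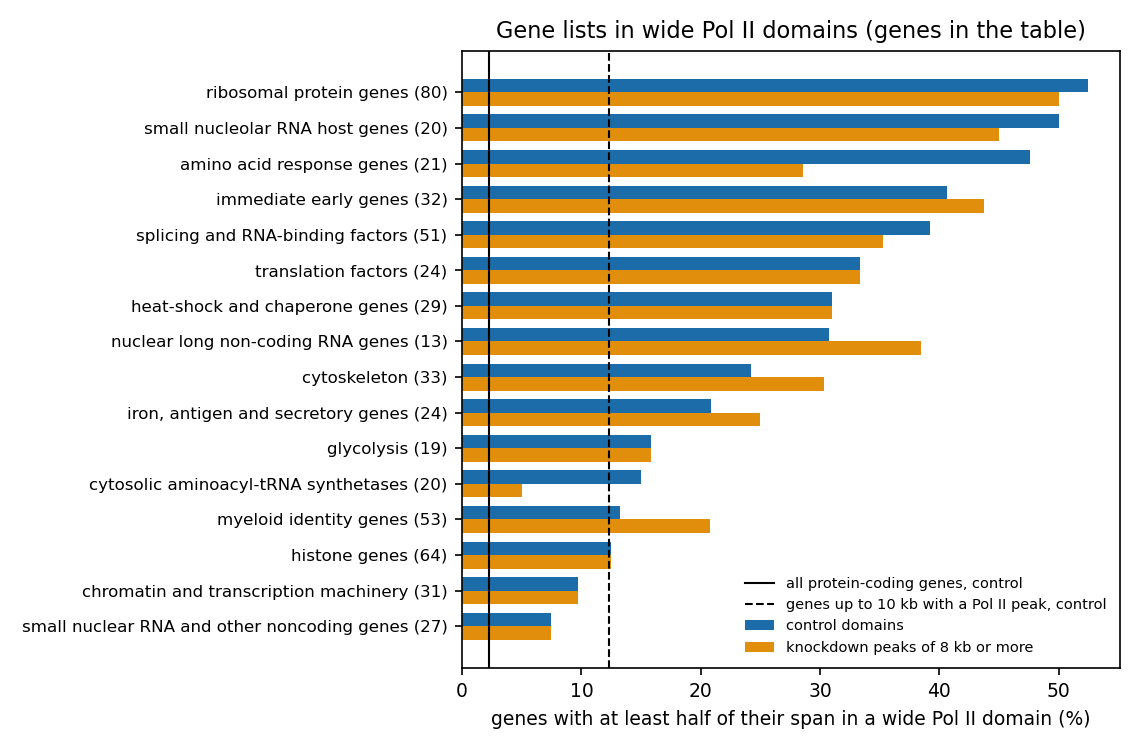
Percentage of the genes of each list with at least 50% of their span in a wide control domain (blue) or a knockdown Pol II peak of 8 kb or more (orange), with the number of genes in parentheses. The solid line marks all protein-coding genes (2.26%) and the dashed line genes of up to 10 kb with a Pol II peak (12.3%), and ribosomal protein genes reach 52.5%.

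QKI5 CLIP peaks were found in 108 domains in control (15.28%; all control Pol II peaks 1.77%) and in 27 in knockdown (3.819%; all 0.24%), and wider peaks have more room for them. Per Mb of domain there were 20.68 control CLIP peaks (190 peaks, exact Poisson interval 17.85 to 23.84), against 19.22 per Mb (16.65 to 22.08) in medium peaks and 16.35 (15.22 to 17.54) in all narrower Pol II peaks. Knockdown CLIP peaks numbered 43, or 4.681 per Mb (3.388 to 6.305), against 2.018 (1.249 to 3.085) and 1.643 (1.299 to 2.051). Of the 43, the GAS5 domain held 6, the NEAT1 domain 5 and the RPL7A domain 3, and the density without them is not given. The whole lists held 7300 control and 649 knockdown peaks, so that 2.603% of control and 6.626% of knockdown CLIP peaks fell in domains. Both lists were represented in 9 domains, and 11 of the 190 control peaks were overlapped by a knockdown peak on the same strand. No such share over the 7300 control peaks is given beside this count, so it does not set the domains apart from other CLIP peaks. The authors' read number per peak had a median of 11 in domains in each condition, and their log2 enrichment a median of 4.439 in control domains, where the medians over the control list were 9 reads and 5.924. Of the 190 control peaks, 100 (52.63%) lay on control H3K4me3. Gene-end domains held 31.86 control CLIP peaks per Mb (22.76 to 43.38) and 1 knockdown peak, while whole-gene domains held 24.39 (19.68 to 29.87) and 21 knockdown peaks. Of the 40 control peaks in gene-end domains, 10 came from 1 domain at PCGF3-AS1, and without it the density was 24.11 per Mb (16.26 to 34.41), close to that of whole-gene domains.

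The domain with the most control CLIP peaks, 11100 bp at chr4:760079-771178, held 10, all on the minus strand and named RP11-440L14.1 by the authors, between 13909 and 18336 bp from the gene's start. The neighbouring 12158 bp domain, 556 bp away, held 5 more of the same RNA. PCGF3-AS1 was the gene with most of its span in both domains, and 1 knockdown Pol II peak of 22590 bp spanned the pair. A 9587 bp domain at TM7SF2 and ZNHIT2 held 6 control peaks, of which 5 were in ZNHIT2. The ACP4 domain (16937 bp) held 5, named C19orf48, and the LENG8 domain (11807 bp) held 5, of which 4 lay 6291 to 6811 bp from the gene start. None of these 5 domains held a knockdown CLIP peak. In knockdown the most, 6, lay in the 11532 bp domain of GAS5, a host of small nucleolar RNAs, where control had none. This domain and the next 2 were picked for their knockdown count after it was seen. NEAT1, the scaffold RNA of paraspeckles, had 5 in knockdown, with up to 150 reads, and 2 in control, with up to 100, and the RPL7A domain held 3 knockdown and 4 control peaks.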

How the data were processed

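Deposited lists of Pol II, H3K4me3 and QKI5 CLIP peaks from THP-1 cells (22 samples, 6 lists) were used, with each list made from both replicates per the series text. HOMER and GRCh38.p5 are listed in the submitters' processing notes, while aligner, peak calling and its settings are not given in the sources. The deposited ChIP peaks all have a score of 1. The CLIP files carry no column names. From their range, 2 columns were taken as the -log10 p and the log2 enrichment that the authors gave each peak.

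Domains were control Pol II peaks of at least 8000 bp. An overlap was 1 bp or more, and cover was the share of the domain's base pairs under peaks of another list. Genes and starts came from RefSeq tables of GRCh38.p14, matched by position and symbol, used for names and neighbourhood. The patch level differs from that of the peaks, and no genome was used here. Of 20037 protein-coding genes, 16325 had a strand and 15842 a listed start, with the outermost start used. CLIP peaks with a matched gene fell within that gene's span for 94.25% in control, which checked the positions. Of 502 list members 500 were in the table. Shares carry exact Clopper-Pearson and densities exact Poisson intervals at 95%, with Python 3.11.15, numpy 2.4.6, pandas 2.3.3 and scipy 1.17.1. The overlap functions were tested on simulated intervals.

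The members and gene lists were chosen with earlier results of these data known. Named were genes of the 20 widest domains, the domains least covered in knockdown, the 10 widest without H3K4me3, the 5 with most control CLIP peaks, and up to 4 members per list, or all where 5 or fewer qualified. In the last of these groups a gene had at least 50% of its span in domains, and in the first it had 50% or, where no gene did, the most base pairs covered. Other genes were named after their values were seen. Widths of 6000 and 10000 bp, joined peaks, a 50% overlap, medians over domains and other CLIP and gene rules were tried as alternatives. Peaks outside chromosomes 1 to 22, X and Y were left out.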

Additional observations from a re-analysis of the deposited data

How the results depend on the processing

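Of 40 alternatives over 13 results, 26 stayed within the interval of the reported value (for base-pair shares a binomial interval with the domains as n; for the number of domains, 1.5 times) and 14 did not. The number of domains was 1253 at a minimum width of 6000 bp, 434 at 10000 bp and 1064 with peaks within 1000 bp joined. Asking for an overlap of at least 50% of the domain gave 98.44% of domains for knockdown Pol II, 46.39% for control and 44.27% for knockdown H3K4me3. At 10000 bp, H3K4me3 overlapped 82.49% of domains in control and 82.72% in knockdown, control CLIP 19.59%, and a gene start or whole gene was held by 69.35%. At 6000 bp the last 2 were 12.29% and 59.54%. Leaving out 1 gene-end domain for its CLIP count was chosen after seeing the data. Knockdown Pol II cover was 91.23% as a median over domains, and joining adjoining CLIP peaks gave 15.46 control peaks per Mb.

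No paired analysis was possible because each list pools both replicates, and for the same reason no replicate could be left out. Depth is unknown, so a missing peak can be a peak under the caller's limit, and the width of a peak depends on how the caller joined its parts. No gap was under 499 bp. Starts were listed for 15842 of 20037 protein-coding genes, and those on chromosome 8 were not analysed here, so counts of starts and sets of domains with a single start cover listed genes only. For 21 domains no start or end class was given. Short genes lie whole in a domain more easily than long ones.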
